A study of Rattus norvegicus with 6 samples.

Results

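The miRNAs described here are miR-192, miR-194 and miR-215, which come from a pair of gene clusters that are active in kidney, gut and liver. Their probes were taken by name. A probe was a member when its rat name, or its name in another species, was miR-192, miR-194 or miR-215 with or without a 5p or 3p ending, and names ending in an asterisk, which mark the minor strand, were left out. The 3 miRNAs, of 679 rat miRNA names on the array, were thus read by 14 of its 5560 miRNA probes, of which 3 carry a rat name and 11 are designs for other species. There were 4 probes for miR-192, 4 for miR-194 and 6 for miR-215.

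Kidney RNA of male Big Blue transgenic rats on the Fisher 344 background was hybridised, 1 array for each of 6 animals. All animals carry the Big Blue transgene, a bacterial reporter used to score mutations. Control replicates 13, 14 and 15 were untreated, and no vehicle gavage is named for them. The animals of AA replicates 19, 20 and 21 were dosed with aristolochic acid (AA), a plant carcinogen that forms DNA adducts and damages the proximal tubule, given as the sodium salt by gavage at 10.0 mg/kg, 5 times a week. Dosing began at 6 weeks of age, the starting age given for the control animals too, and lasted 12 weeks. The AA animals were killed 1 day after its end. Values by array are given in this order of replicates throughout, control first.

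miRNAs bind target mRNAs mainly through the seed, bases 2 to 8 from the 5′ end. miR-192 and miR-215 have the same seed and therefore overlap in their targets, which include the mRNA of the transcription repressor Zeb2. miR-194 has another seed but is transcribed together with miR-192 from one cluster and with miR-215 from the other. p53 can raise all of these miRNAs, and loss of miR-192 and miR-194 has been described in injured and fibrotic kidney.

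The mature sequences are printed to show which probes can be told apart, from the RefSeq annotation of the rat on GRCr8 with the seed in capitals. The array files name no genome build, and positions are those of RefSeq on the + strand.
rno-miR-192, chr1:212994232-212994252: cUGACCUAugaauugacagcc
rno-miR-194, chr1:212994038-212994059 and chr13:99382730-99382751: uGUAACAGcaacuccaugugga
rno-miR-215, chr13:99383003-99383024: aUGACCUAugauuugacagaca

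miR-192 and miR-215 share the seed UGACCUA, and 18 of their first 21 bases are the same. They differ by C1A, A12U and C20A, with the miR-192 base first, the position counted from the 5′ end and the miR-215 base last. The seed of miR-194 is GUAACAG. Both miR-194 genes give the same mature sequence, so a probe for it reads the sum of the 2 loci.

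The hairpins are printed with the mature strand in capitals, because their order along the chromosome defines the clusters.
Mir194-2, chr1:212994024-212994108: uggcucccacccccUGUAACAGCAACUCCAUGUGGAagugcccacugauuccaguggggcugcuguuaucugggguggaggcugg
Mir192, chr1:212994209-212994318: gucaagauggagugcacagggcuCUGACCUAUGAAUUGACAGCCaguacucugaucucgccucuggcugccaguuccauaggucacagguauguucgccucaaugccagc
Mir194-1, chr13:99382716-99382798: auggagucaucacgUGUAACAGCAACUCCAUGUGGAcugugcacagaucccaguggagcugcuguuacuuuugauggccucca
Mir215, chr13:99382990-99383086: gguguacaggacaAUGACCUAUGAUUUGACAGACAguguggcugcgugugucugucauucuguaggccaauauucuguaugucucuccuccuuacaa

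On chromosome 1, 100 bases separate the hairpins of miR-194 and miR-192, which lie inside no annotated gene, between Atg2a and Ehd1. On chromosome 13, 191 bases separate those of miR-194 and miR-215, which lie within the span of Iars2, the gene of the mitochondrial isoleucyl-tRNA synthetase.

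The probes for other species are printed by the RNA they were designed for. Bases are in capitals where they differ from the rat miRNA of the same name. They are shown because the miR-215 designs differ in how closely they match rat miR-215 and rat miR-192.
bta-miR-192: cugaccuaugaauugacagccag
dre-miR-192: Augaccuaugaauugacagcc
pma-miR-192: Uugaccuaugaauugacagccg
pma-miR-194: uguaacagcaacuccauguggau
ssc-miR-194-5p: uguaacagcGacuccaugugga
mmu-miR-215: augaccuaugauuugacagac
hsa-miR-215: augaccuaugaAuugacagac
mdo-miR-215: augaccuaugaAuugacagaca
xtr-miR-215: augaccuaugaAAugacagCc
cfa-miR-215: augaccuaCgaAuugaUagaca

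The bovine (bta) miR-192 target holds the whole rat miR-192 and lies in the rat hairpin, and the lamprey (pma) miR-194 target holds the whole rat miR-194 with 1 further base. The zebrafish (dre) miR-192 target differs from rat miR-192 by C1A, and that of lamprey by C1U with 1 further base. The pig (ssc) miR-194-5p target differs from rat miR-194 by A10G. The mouse (mmu) miR-215 target equals rat miR-215 but is 1 base shorter. The remaining 4 miR-215 targets, of human (hsa), opossum (mdo), frog (xtr) and dog (cfa), all carry U12A against rat miR-215, and rat miR-192 has an A at that position too. The human and opossum miR-215 targets differ from rat miR-192 by C1A and C20A, and the frog target by C1A and U13A. The pig probe miR-194-3p is for the opposite arm of the hairpin, and the name rule takes it because its name has no asterisk.

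One array stood apart before any comparison was made. AA replicate 20 had a mean probe signal above the empty spots of 149, and the others had 263 to 484. Of the 1132 probes that were tested, 66.8% stood well above background on it, meaning more than 3 robust SDs over the median of the empty spots, against 84.9% to 97.9% elsewhere. The probe for miR-122, the dominant miRNA of hepatocytes, read 15191 on AA replicate 20 in the deposited normalized intensity and 8.17 to 48.5 on the other 5 arrays. In scanner signal above the empty spots the contrast was smaller, with 2026 on AA replicate 20 and 18.9 to 88.8 on the others. The marker of another organ was thus high on 1 of the 3 AA arrays. Its part in the results was not tested, and the changes of the member probes and the list medians are given with and without that array.

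The other marker lists overlapped between the groups, with the exception of miR-375, the islet marker, at 50.6 to 74.8 on the control arrays and 0.00863 to 32.2 on the AA arrays. Of 8 tubule epithelium markers, 6 reached an intensity of 32 on all arrays, and miR-141 and miR-204 reached it on none. Their summed intensity was 10606 to 12039 in control and 7681 to 14454 in AA, lowest on AA replicate 20. The endothelial miR-126 was between 1210 and 1437 in control and between 602 and 1646 in AA. The smooth muscle miRNAs miR-143 and miR-145 summed to 1181 to 2228 in control and 1361 to 2265 in AA. The leukocyte list summed to 1774 to 2398 in control and 1311 to 1938 in AA, with miR-142-3p, miR-142-5p and miR-223 below 32 throughout. The erythroid sum was 51.3 to 66.3 in control and 8.36 to 75.7 in AA, with miR-144 below 32. The muscle sum was at most 526 in control and 606 in AA, with miR-1, miR-133a and miR-133b below 32. The brain sum was 44.5 to 47.2 in control and 16.2 to 117 in AA, with miR-124 and miR-9 below 32. In whole kidney, fewer cells of a type and less RNA per cell cannot be told apart.

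miR-192 and miR-194 were detected on every array, and the rat miR-215 probe on none. The probes at or above 32 on all 6 arrays were the 4 for miR-192, the rat and lamprey miR-194 probes and the frog miR-215 probe. These are 7 of the 14 members, where 566 of all 5560 probes reached 32 on all 6 arrays. The pig miR-194-5p, human miR-215 and opossum miR-215 probes reached 32 on 5 arrays, and each was not well above background on AA replicate 20. The remaining 4, which are the pig miR-194-3p probe and the rat, mouse and dog miR-215 probes, read between 0.00153 and 9.78, with 0 of their 24 values at 32 and 0 well above background. These 4 were not tested.

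**Figure D1:**
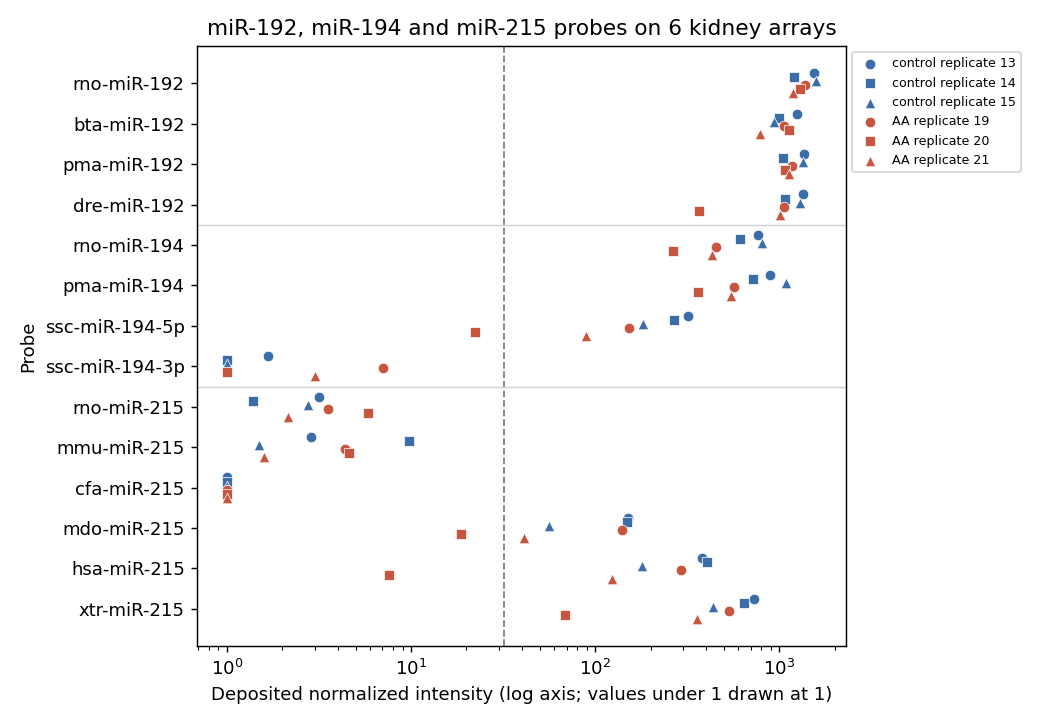
Deposited normalized intensity (log axis, values under 1 drawn at 1) of the 14 member probes, 1 point per array, with control in blue and AA in red and the dashed line at an intensity of 32. All miR-192 probes sit to the right of the line, the rat, mouse and dog miR-215 probes sit to the left of it, and AA replicate 20 (red square) is the lowest point of the pig miR-194-5p and the human, opossum and frog miR-215 probes.

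The rat miR-192 probe overlapped between the groups. On the log2 scale of the normalized scanner signal it read 10.68, 10.39 and 10.87 in control and 10.67, 9.91 and 10.51 in AA. AA replicate 20 was lowest, and AA replicates 19 and 21 lay within the control range. The means were 10.65 ± 0.24 in control and 10.36 ± 0.40 in AA (SD, n = 3), a log2 difference of -0.28 with a standard error (SE) of 0.30 (limma unadjusted p = 0.383, adjusted p = 0.885). In the deposited table the same probe read 1539, 1208 and 1586 in control and 1382, 1295 and 1189 in AA.

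The bovine probe, which holds the whole rat sequence, read 10.44, 10.14 and 10.14 in control and 10.42, 9.69 and 9.89 in AA, a difference of -0.24 (SE 0.29). The lamprey and zebrafish probes, which differ from rat miR-192 at the first base, changed by -0.24 (SE 0.32) and -0.71 (SE 0.50). Without AA replicate 20 the differences of the 4 miR-192 probes lay between -0.13 and 0.03, and that of the rat probe was -0.05 (SE 0.25). The larger value of the zebrafish probe came with AA replicate 20, on which it differed from the control mean by -1.88, while AA replicates 19 and 21 differed from that mean by -0.11 and -0.15.

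The rat miR-194 probe was lower on every AA array than on any control array. It read 9.73, 9.40 and 9.91 in control and 9.15, 8.25 and 9.18 in AA, in log2 signal. The means were 9.68 ± 0.26 and 8.86 ± 0.53 (SD, n = 3), a log2 difference of -0.82 (SE 0.34, 95% interval from -1.62 to -0.02), which is 0.567 times the control signal. The deposited intensity was 770, 608 and 802 in control and 453, 264 and 432 in AA. limma gave an unadjusted p of 0.0456 and a Benjamini-Hochberg adjusted p of 0.885 over the 1132 tested probes, so the difference did not pass the threshold of 0.05. Without AA replicate 20 the difference was -0.53 (SE 0.25, limma unadjusted p = 0.0774, adjusted p = 0.620).

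The lamprey probe holds the whole of rat miR-194 and read 10.01, 9.60 and 10.26 in control and 9.44, 8.66 and 9.37 in AA. Again the groups did not overlap. The difference was -0.80 (SE 0.33, limma unadjusted p = 0.0427, adjusted p = 0.885), and -0.58 without AA replicate 20. The pig miR-194-5p probe, with its A10G change, read 8.61, 8.42 and 7.98 in control and 7.80, 6.54 and 7.41 in AA. Its difference was -1.08 (SE 0.38, limma unadjusted p = 0.0250, adjusted p = 0.885), and -0.83 without AA replicate 20, where it was not above background. The zebrafish miR-194a probe falls outside the name rule but its target lies in both rat hairpins. It read 999, 772 and 1175 in control and 585, 501 and 649 in AA in the deposited table, a log2 difference of -0.71 (SE 0.32, limma adjusted p = 0.885), and -0.50 without AA replicate 20. These probes were designed for the same RNA and read on the same arrays, so they are not separate evidence.

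**Figure D2:**
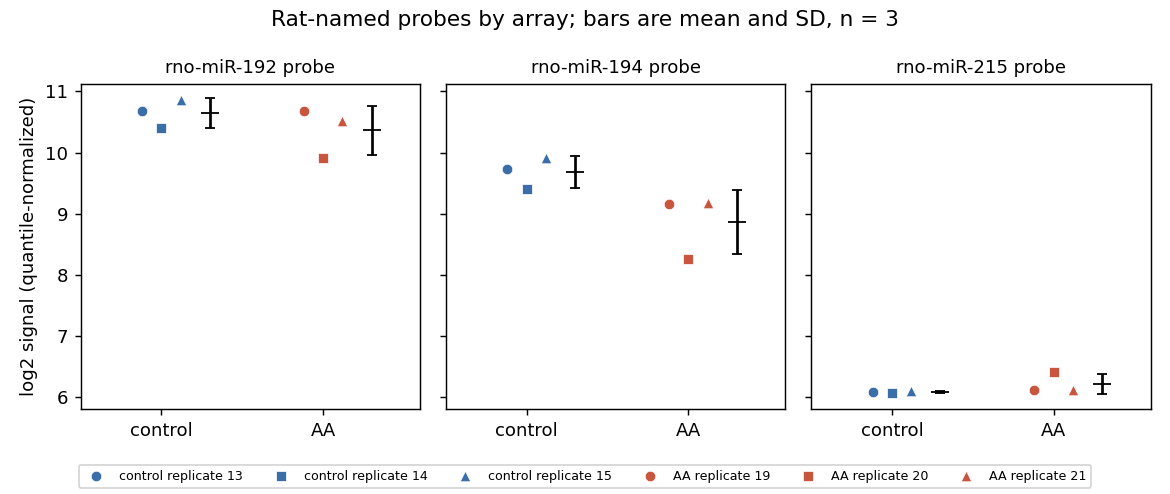
Quantile-normalized log2 signal of the rat-named probes by array, with the mean and SD of 3 arrays per group in black. miR-194 is lower on the 3 AA arrays (8.25 to 9.18) than on the 3 control arrays (9.40 to 9.91), miR-192 overlaps between the groups, and miR-215 lies near 6 on all arrays, where it is not above background.

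The rat miR-215 probe gave no measurement above background. Its deposited intensity was 3.16, 1.39 and 2.75 in control and 3.56, 5.86 and 2.14 in AA, so no fold is given. The mouse probe, whose target lies within rat miR-215, was not above background on any array either. The 3 brighter miR-215 probes all have the A at position 12. In normalized log2 signal the human design read 8.76, 8.73 and 7.74 in control and 8.25, 6.11 and 7.56 in AA, a difference of -1.10 (SE 0.58). The frog and opossum designs differed by -1.08 (SE 0.61) and -0.52 (SE 0.43). The sizes moved with the processing, from -2.19 to -0.56 for human, -1.67 to -0.36 for frog and -1.17 to -0.06 for opossum over the alternatives.

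The 3 miR-215 designs overlapped between the groups, and their changes leaned on AA replicate 20. On that array the human and opossum designs were not above background, and the frog design stood at -2.56 from its control mean in log2 signal. Without it the changes were -0.57 for human, -0.36 for frog and -0.27 for opossum. Of the 4 miR-215 probes with an A at position 12, 3 were tested, and of the 2 with a U there 0 were. Of all 5560 probes, 1132 were tested. The dog design, with the A but further changes at U9C and C17U, stayed at background. Which rat RNA these probes bound was not tested.

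Over the family, 0 of 10 tested members had an adjusted p under 0.05, where 2 of all 1132 tested probes did (0.177%). The 10 are repeat designs for the same few RNAs, read on the same arrays. Counts and medians over them are therefore not separate evidence, and the shares of all tested probes are given for scale only. At an unadjusted p under 0.05, 3 of the 10 were lower in AA, all of them for miR-194, against 3.8% of all tested probes (4.95% in either direction). This count was 0 of 10 with plain background subtraction, median scaling, no normalization, the methods' t-test or a trended and robust prior. It was also 0 of 10 without control replicate 13, and 0 of 7 with a filter at 32 on all 6 arrays. A normexp offset of 16, deposited values or a filter at 32 on at least 3 arrays gave 1 of 10. Leaving out control replicate 14, control replicate 15 or AA replicate 21 also gave 1, and leaving out AA replicate 19 gave 5. Array weights gave 4, and the first or last spot of each probe gave 2. Without AA replicate 20 an unadjusted p under 0.05 held for 1 of the 10, the pig miR-194-5p probe (limma unadjusted p = 0.0316, adjusted p = 0.515), against 2.55%. There 0 passed the adjusted threshold, against 0.273%. Non-overlapping groups with AA lower were found for 3 of 3 tested miR-194 probes, 0 of 4 for miR-192 and 0 of 3 for miR-215, against 5.57% of all tested probes. Without AA replicate 20 these counts were again 3 of 3, 0 of 4 and 0 of 3, against 8.73% of the probes tested there. Of the 10, 0 were higher without overlap, against 4.42%. All 10 changes were below 0, against 54.2% of all tested probes, and without AA replicate 20 the lamprey miR-192 probe was at 0.03. The median change of the 10 was -0.76, beside -0.05 for all tested probes, and without AA replicate 20 it was -0.32 beside -0.01. In the deposited table the zebrafish miR-192 probe was also lower in AA without overlap.

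**Figure D3:**
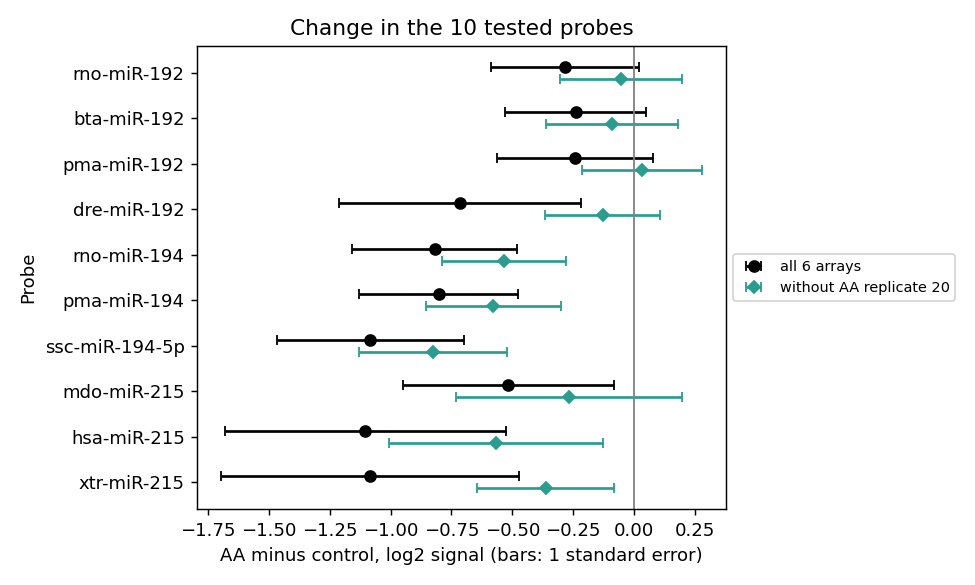
AA minus control on the log2 scale for the 10 tested probes, with 1 standard error, from all 6 arrays (black) and without AA replicate 20 (green). With that array left out the 4 miR-192 probes lie between -0.13 and 0.03, and the 3 miR-194 probes between -0.83 and -0.53.

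As miR-192 shares a primary transcript with the chromosome 1 copy of miR-194, their ratio was compared within each array, where array brightness is common to both probes. The miR-194 probe also reads the chromosome 13 copy, so the ratio does not compare the products of one transcript alone. The log2 signal of the rat miR-194 probe minus that of the rat miR-192 probe was -0.95, -0.99 and -0.95 in control and -1.53, -1.65 and -1.33 in AA. The control arrays were at -0.97 ± 0.02, and the AA arrays were all lower, at -1.50 ± 0.16 (SD, n = 3). The difference was -0.54, with an exact two-sided permutation p of 0.10, the smallest that 3 against 3 arrays can give. As a ratio of signals this was 0.512 ± 0.008 in control and 0.354 ± 0.040 in AA. In scanner signal above the empty spots the log2 differences varied more in control, at -0.92, -1.06 and -1.12 (SD 0.10). There the AA arrays were at -1.42, -1.88 and -1.70. A ratio between probes depends on how each binds, so its change and not its size is the measurement. An unequal change does not say which of the miRNAs moved, nor from which miR-194 locus.

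The change of the ratio did not rest on AA replicate 20. Without it the difference was -0.48, and leaving out any 1 of the 6 arrays gave -0.61 to -0.48. The lamprey probe pair gave -0.57, -0.59 and -0.33 in control and -1.07, -1.01 and -1.08 in AA, a difference of -0.56 (exact permutation p = 0.10), and -0.58 without AA replicate 20 and with no new normalization. In the deposited values the rat pair was at -0.99 ± 0.008 in control (SD, n = 3) and at -1.61, -2.29 and -1.46 in AA, a difference of -0.80 (exact permutation p = 0.10), and -0.54 without AA replicate 20. Of the 179 other tested rat probes, including miR-194, each set against miR-192 in the same way, 2 (1.12%) were lower in AA without overlap. These were miR-194 at -0.54 and miR-26b at -0.59, the latter named after its values were seen. A further 26 (14.5%) were higher without overlap.

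**Figure D4:**
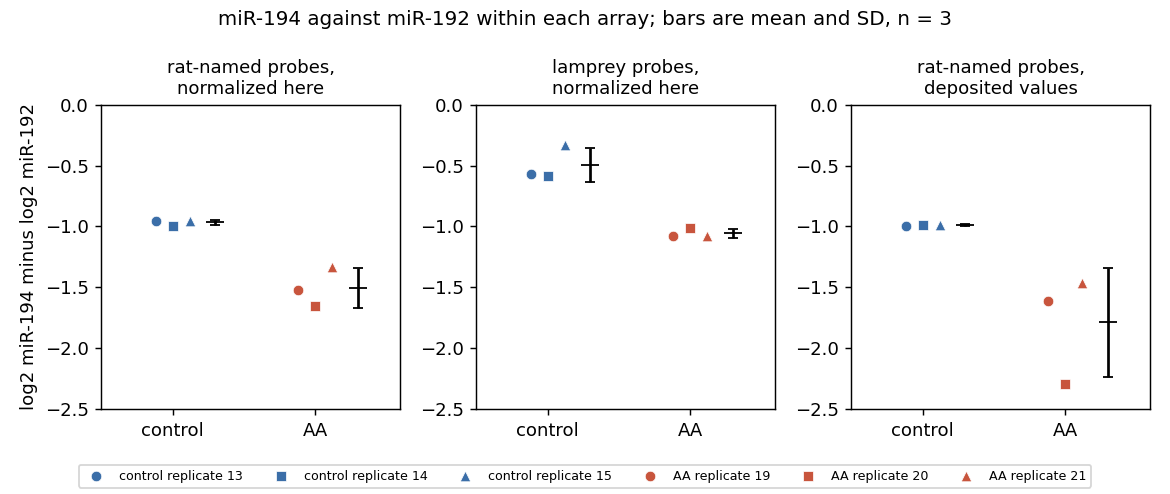
log2 miR-194 minus log2 miR-192 within each array for the rat-named probes, the lamprey probes and the rat-named probes in the deposited values, with the mean and SD of 3 arrays per group. In each panel all 3 AA arrays lie below all 3 control arrays, by -0.54, -0.56 and -0.80 on average.

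The probes that ran most like miR-192 across the arrays were those of miR-26a, miR-324-3p and miR-504. Likeness was the root mean square difference of the mean-centred log2 signals over 6 arrays, and it was 0.148, 0.158 and 0.174, where the median over the 178 rat probes compared was 0.390. For miR-194 the closest were miR-26a (0.233), miR-26b (0.234) and the minor strand miR-455* (0.236), with a median of 0.546. Their AA minus control changes were -0.37 (SE 0.35), -0.88 (SE 0.28) and -0.79 (SE 0.47), beside -0.82 (SE 0.34) for miR-194. As likeness was taken over the arrays of both groups, similar changes follow in part from how the probes were picked. The miR-192 probe and the miR-194 probe, which reads both miR-194 loci, were not each other's closest. miR-194 ranked 43 among the probes set against miR-192, and miR-192 ranked 6 among those set against miR-194. The probes most like miR-215 were those of miR-3591, miR-138-1* and miR-30c-2* (0.0819 to 0.109), but as the miR-215 probe was not above background this likeness says nothing about miR-215 itself.

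Other miRNAs of the pathways around the family were counted from fixed lists, on the normalized log2 scale. Among the miRNAs that p53 raises, a set to which miR-192, miR-194 and miR-215 also belong, 1 of 8 tested members rose and 0 fell, against 0.177% of all tested probes called. The one that rose was miR-34a, the direct p53 target, from 6.37 ± 0.05 to 8.95 ± 0.25 (SD, n = 3), a change of 2.58 (SE 0.25, limma adjusted p = 0.00864), and 3.09 without AA replicate 20. The change was between 2.25 and 4.51 in 21 alternatives, but the call was lost in 8 of them, which were cyclic loess, median scaling, no normalization and the omission of any 1 array other than AA replicate 20 (adjusted p up to 0.991). The others that the rule names were miR-15b at 0.66, miR-34c at 0.27 and miR-107 at 0.08. The list's median was 0.08, and 0.38 without AA replicate 20, beside 0.03 and 0.17 for the tested rat probes. With all arrays the tested probes for miR-192 and miR-194 were below 0, and none of them passed. Without AA replicate 20 the lamprey miR-192 probe was at 0.03. The rat miR-215 probe was not tested. The tested miR-215 designs of other species were also below 0 and did not pass, but which rat RNA they bound was not tested.

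None of the 5 tested miRNAs that repress Zeb1 and Zeb2, the latter also targeted through the miR-192 seed, passed in either direction in limma. Of the 5, 0 had an unadjusted p under 0.05. For this list and the next, 0.177% of all tested probes passed and 4.95% had an unadjusted p under 0.05. Here miR-205 was at 1.20, miR-200a at 0.58, miR-200c at 0.39 and miR-200b at 0.32, and the median was 0.39. Without AA replicate 20 miR-205 was at 0.74 and the median at 0.35. Among miRNAs of nephron epithelium 0 of 13 passed, with 0 at an unadjusted p under 0.05 and miR-10b at -0.78, miR-30b-5p at -0.65, miR-30e at -0.59 and miR-200a at 0.58. The median of this list was -0.15 with all arrays and 0.31 without AA replicate 20. The miR-194 probes were below 0 either way, while miR-10b, miR-30b-5p and miR-30e were at 0.24, 0.13 and 0.06 without that array. Among miRNAs of fibrosis and TGF-beta signalling 1 of 8 rose, again miR-34a, and 0 fell, against 0.177% of all tested probes called. The largest others were miR-21, which is raised in injured tubules, at 1.56 (SE 0.60) and 1.95 without AA replicate 20, miR-199a-3p at 0.74 and miR-214 at 0.72, and 4 of the 8 had an unadjusted p under 0.05, against 4.95% of all tested probes. The median of the fibrosis list was 0.62, and 0.86 without AA replicate 20. For all of these lists, the medians of the tested rat probes were 0.03, and 0.17 without that array.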

How the data were processed

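Total kidney RNA of 3 control and 3 AA rats was tailed, tagged, hybridised to a 1-colour Cy3 miRNA chip and laser-scanned. The authors deposited scanner intensity (median pixel values, neither background-corrected nor normalized) and a table of normalized intensity, described as background subtraction and LOWESS. The table is linear, and its LOWESS reference is not given in the sources used here.

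Here scanner intensity was corrected with normexp (offset 50, which understates changes of dim probes), control and empty spots were dropped, log2 signal was quantile-normalized and the spots of a probe averaged. Probes reaching 32 on at least 1 array in the deposited table were tested, 1132 in all, with limma 3.58.1 in R 4.3.3, Benjamini-Hochberg adjustment and a threshold of 0.05. A single probe that the deposited table lacks was judged by its scanner signal above the empty spots. The code was tested on simulated data. Separate animals are taken from the labels, and the number of arrays and signal over background limit precision.

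Named were all members, the 3 tested rat probes most like each rat member, and up to 4 per list, those past the threshold and then the largest changes. Members and lists were chosen with earlier results of these data known. Of 3 planned differences between members, both with miR-215 were not computed, as its rat probe was not above background. Mature and hairpin sequences of all 3 miRNAs matched RefSeq by name.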

Additional observations from a re-analysis of the deposited data

Results flagged for a closer look

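A minor-strand probe outside the name rule, oan-miR-194* of the platypus, read above its control level on the AA arrays. Its deposited intensity was 13.0, 15.6 and 20.4 in control and 23.8, 62.8 and 32.8 in AA. The highest value was on AA replicate 20, the array with the high miR-122 signal. The log2 change was 0.43 (SE 0.27, limma adjusted p = 0.885), so the difference did not pass the threshold. The rat minor-strand probe rno-miR-194* reached 19.7 in control and 24.4 in AA, with overlapping groups.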

How the results depend on the processing

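No member probe passed the threshold in the comparison as reported, and 1 did with array weights, the pig miR-194-5p (limma adjusted p = 0.0405). These weights gave AA replicate 20 a weight of 0.124 and control replicate 14 one of 5.17. Over all tested probes 2 passed, against 0 with cyclic loess, median scaling, no normalization or a filter at 32 on all 6 arrays, 44 with array weights, and 0 to 3 when each array was left out in turn. The rat miR-194 change ran from -1.28 to -0.41 over 22 alternatives, with limma adjusted p from 0.324 to 0.991. Of 217 member changes all but 3 were below 0, but these are repeat designs on the same arrays and not separate evidence. Filters, the choice of test and the median over spots leave a change as it was, so many of the 217 are copies. The rat miR-192 change ran from -0.92 without normalization to 0.0025 with array weights. The lamprey miR-192 change turned to 0.083 with array weights and to 0.032 without AA replicate 20, and ran from -0.40 to 0.032 over the arrays left out. The causes were not tested. The change of the miR-194 to miR-192 difference was -0.66 with plain subtraction, -0.42 with cyclic loess and -0.36 with median scaling or none. It was -0.79 and -0.77 on deposited values with 1 and 16 added. AA lay below control without overlap in all 17 alternatives, but several of these could hardly have come out otherwise. The median over 2 spots equals their mean, scaling cancels within an array, and omitting an array only takes values from groups already apart. Median scaling moved the median change of all tested probes to 0.24 and no normalization to -0.32. Relative to that median the rat miR-194 change was -0.96 and the rat miR-192 change -0.60 under both. Detection on all 6 arrays held for 7 members, and for 6 on the scanner signal at 32 or at 5 robust SDs above empty spots. The choice of first or last spot, the lamprey pair and the 5 robust SDs were added after seeing the data. A local background and a slide or scan block were not run, as the files name none. No paired analysis was possible because the groups share no replicate numbers.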
